A study of Mus musculus with 36 samples.

Results

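The autism-associated nuclear regulators Adnp, Pogz, Dyrk1a, Ash1l, Auts2, Ankrd11, Myt1l, Med13l, Wac and Tcf20 were followed through RNA sequencing counts of the embryonic mouse forebrain in a Chd8 allelic series. They were taken by symbol and make up 10 of the 46603 genes listed. CHD8 is a chromatin remodeller whose gene is itself one of the most firmly established autism risk genes. At E12.5 the neocortex was sampled from Chd8 +/+ (WT), Chd8 +/- (HET), Chd8 neo/neo and Chd8 neo/- embryos, 3 per genotype and 1 embryo in each library. The null allele lacks exon 3, removed in the germline by a β-actin Cre that was then bred out, and the neo allele has a selection cassette in the intron that follows exon 3, which lowers normal splicing of the transcript. Embryos of one genotype came from different litters. At E10.5 telencephalic vesicles were sampled from Ctrl embryos, labelled as a combination of Chd8f/f and Chd8 f/+ and described in the methods as floxed embryos without Cre, and from cKO embryos, sox1-Cre; Chd8f/f, in which Sox1-Cre deletes Chd8 throughout the early neural tube. Here each of the 3 libraries per group held RNA of 2 embryos. All animals were C57Bl/6J, and no group at E10.5 is free of floxed alleles.

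The 10 proteins work in the nucleus at different steps of gene regulation, and heterozygous mutation of each human gene is known to cause a neurodevelopmental disorder with autism or intellectual disability. ADNP and POGZ are zinc finger proteins that bind heterochromatin protein HP1, and ADNP forms a complex with the remodeller CHD4. ASH1L is a histone methyltransferase, AUTS2 joins a Polycomb complex that activates transcription in neurons, and WAC is an adaptor of the ligases that ubiquitinate histones on transcribed genes. MED13L belongs to the kinase module of Mediator, TCF20 and ANKRD11 are transcriptional coregulators, DYRK1A is a kinase whose substrates include the DREAM subunit LIN52, and MYT1L is a repressor made in postmitotic neurons.

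Every member passed the filter on low counts at both stages. The library totals ran from 38774591 to 61051667 counts in the neocortex and from 49632937 to 68488879 in the earlier vesicles. Chd8 was lower in every mutant group than in its control. It fell by 0.51 on the log2 scale in HET (SE 0.043), by 0.18 in neo/neo (SE 0.042), by 0.67 in neo/- (SE 0.043) and by 0.50 in cKO (SE 0.065), with libraries that did not overlap and adjusted p = 0.00014, 0.020, 8.6e-07 and 0.0011 in edgeR's quasi-likelihood test. These counts cover all exons, so transcripts without the deleted exon are still counted. Chd8 in neo/neo lay 0.33 above HET (SE 0.043, adjusted p = 0.0090 in the same test). The paper reports the opposite order, with a larger loss in neo/neo by quantitative RT-PCR of earlier embryos and in CHD8 protein. These counts therefore do not rank the genotypes by CHD8 level, and what adds to them in neo/neo was not tested. The dorsal forebrain markers Emx1, Emx2, Pax6 and Lhx2 were expressed in all libraries, Emx1 at 24.1 to 69.4 CPM (counts scaled to the effective size of each library). The 8 ventral telencephalon markers summed to 718.4 to 759.3 CPM in WT, 621.6 to 741.5 in HET and 604.9 to 704.6 in neo/neo. Their sum was 560.8 to 695.2 CPM in neo/-, 14.45 to 26.47 in Ctrl and 10.3 to 16.96 in cKO. The summed CPM of 16 neuron markers lay between 4393 and 5179 in WT and HET, between 3559 and 4231 in neo/neo, between 3921 and 4424 in neo/- and between 281.9 and 490.1 at E10.5. The 6 erythroid markers summed to 2982 to 3666 CPM in WT and to 4304 to 6863 CPM in neo/-, and 6 mesenchyme markers to 639.7 to 731 CPM in Ctrl and 802.1 to 1001 CPM in cKO. No marker of the erythroid or mesenchyme lists was at 0 in any group. In these bulk samples fewer cells of a type and less RNA per cell cannot be told apart.

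At E12.5, 4 libraries showed Xist without Y-linked expression (WT 3, HET 1, neo/neo 1 and neo/neo 2), and all neo/- libraries came from male embryos. At E10.5, 2 Ctrl libraries came from female embryos alone, Ctrl 2 from males alone and the 3 cKO pools from both, so sex and genotype cannot be told apart there.

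The members lie on 8 autosomes and differ widely in size. Their exon lengths in the counting annotation (Ensembl, GRCm38) run from 5.35 kb for Adnp to 22.89 kb for Auts2, and 73.3% to 99.75% of the genes tested at E12.5 were shorter. Auts2 spans 1106 kb of chromosome 5 (131437333-132543344, minus strand), and Ash1l 128.8 kb of chromosome 3 (88950622-89079375, plus strand). Med13l lies at 118560679-118765438 on chromosome 5 (plus), Tcf20 at 82808629-82912134 on chromosome 15 (minus) and Myt1l at 29528384-29923209 on chromosome 12 (plus). Dyrk1a lies at 94570010-94695517 on chromosome 16 (plus), Pogz at 94837567-94882326 on chromosome 3 (plus), Ankrd11 at 122883337-122974793 on chromosome 8 (minus) and Wac at 7868832-7973547 on chromosome 18 (plus).

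Adnp lies at 168180986-168207112 on chromosome 2 (minus), and its counts need care. A second gene model on the same strand, Gm20716 (168180986-168230364), starts upstream of Adnp and contains 3 of its 5 exons, including the large last exon of 4187 bases that holds most of the coding sequence. In all, 4393 of the 5350 exon bases of Adnp, 82.1%, belong to both genes. The counting program by default gives a fragment that fits both genes to neither. Gm20716 itself received 39 counts over all 12 E12.5 libraries. The Adnp values below therefore rest on its first 2 exons, 957 bases, and its level cannot be compared with that of the other members. Of the other members, Ash1l shared 2.37% of its exon bases with Dap3 on the opposite strand, Med13l 0.356% with Gm43785, and the remaining 7 shared none.

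**Figure D1:**
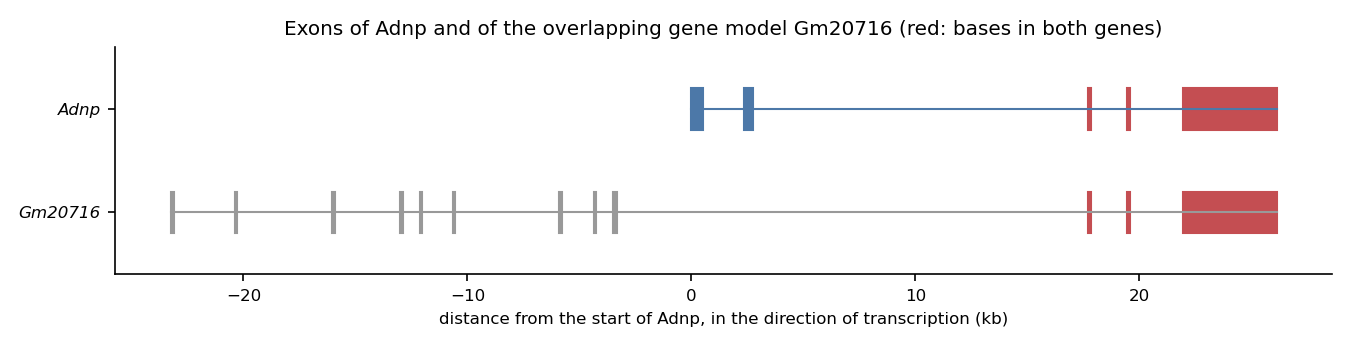
Exon map of Adnp (upper row) and of the overlapping gene model Gm20716 (lower row), drawn to scale along the distance from the start of Adnp in kb. Red boxes are bases that belong to both genes, 4393 of the 5350 exon bases of Adnp, and blue and grey boxes are bases of one gene.

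Promoter sequences of the members were taken from a reference set, and no difference between them was tested. Windows from 250 bases before to 50 after the RefSeq start (GRCm38.p6) were found for 7 members, 13 windows in all, and none for 3 members, Ash1l and Auts2 among them. Those of 3 members are shown, 5′ to 3′ on the strand of the gene, because these members were called in a comparison below, and they were chosen after those values were seen. Capitals mark a match to one of 6 motifs searched on both strands, ETS (CCGGAAG), NRF1 (GCGCATGC), YY1 (AAGATGG), SP (GGGCGGG), CRE (TGACGTCA) and the TATA box (TATAAA).
Adnp, chr2:168207063-168207362 (minus): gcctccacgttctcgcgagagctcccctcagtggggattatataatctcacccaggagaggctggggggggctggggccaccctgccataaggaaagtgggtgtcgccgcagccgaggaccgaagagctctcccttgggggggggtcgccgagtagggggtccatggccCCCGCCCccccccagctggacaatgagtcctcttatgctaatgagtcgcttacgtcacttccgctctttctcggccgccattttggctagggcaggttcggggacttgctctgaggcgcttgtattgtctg
Med13l, chr5:118560469-118560768 (plus): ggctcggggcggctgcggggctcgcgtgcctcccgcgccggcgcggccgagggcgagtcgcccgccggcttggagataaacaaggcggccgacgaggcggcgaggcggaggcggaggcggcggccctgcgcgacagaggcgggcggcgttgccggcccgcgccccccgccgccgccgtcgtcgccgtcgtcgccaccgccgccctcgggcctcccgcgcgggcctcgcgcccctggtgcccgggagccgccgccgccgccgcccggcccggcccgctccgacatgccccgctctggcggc
Tcf20, chr15:82912085-82912384 (minus): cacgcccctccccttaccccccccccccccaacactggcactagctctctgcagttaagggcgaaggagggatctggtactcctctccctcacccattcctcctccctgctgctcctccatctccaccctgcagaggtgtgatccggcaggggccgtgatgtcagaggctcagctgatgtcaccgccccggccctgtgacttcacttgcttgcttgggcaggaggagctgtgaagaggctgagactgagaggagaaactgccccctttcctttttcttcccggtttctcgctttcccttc
The Med13l window is 84.7% G and C, that of Adnp 62.7% and that of Tcf20 61%. The Adnp window holds 1 SP match, 81 bases before the start on the opposite strand, and the other windows shown hold none of the 6 motifs. Among the rest, Dyrk1a and Ankrd11 hold SP matches, 2 of which overlap in one Dyrk1a window, and Myt1l an SP match and 2 YY1 matches. For scale, among the 32851 promoter windows given for the mouse, 25.6% hold the SP letters, 13.6% TATA, 8.86% ETS, 6.34% YY1, 2.71% NRF1 and 1.79% CRE.

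All members but Adnp were well expressed in the WT neocortex, and Wac led them. On the TPM scale, which corrects for exon length and library size, Wac reached 129.3 ± 3.01 (SD, n = 3), above 95.6% of the genes detected. Tcf20 and Ankrd11 followed at 71.4 ± 1.90 and 71.4 ± 9.29, then Pogz at 62.0 ± 3.11 and Dyrk1a at 57.1 ± 3.71. Tcf20 and Ankrd11 did not differ beyond their spread, nor did Pogz differ beyond the summed SDs from Ankrd11 above it or Dyrk1a below it. Ash1l, Auts2 and Myt1l could not be told apart at 34.3 ± 1.79, 33.9 ± 2.46 and 33.4 ± 2.24 TPM, and Med13l was lower at 21.9 ± 1.93. Adnp was listed at 1.30 ± 0.074 TPM over its whole exon length, or 7.25 TPM over the 957 bases that could be counted.

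The stages were sequenced and counted in separate tables, so their levels are set side by side without a test. In Ctrl vesicles at E10.5, Wac again led with 100.1 ± 3.45 TPM, followed by Ankrd11 at 66.8 ± 13.3, Pogz at 49.8 ± 3.79 and Dyrk1a at 45.9 ± 3.61. Myt1l was almost absent at E10.5, with 4 to 27 counts in each Ctrl library and 9 to 17 in each cKO library, against 2070 to 3693 counts at E12.5. Auts2 stood at 10.03 ± 1.12 TPM at E10.5 and 33.9 ± 2.46 in WT at E12.5. The summed neuron markers were also far lower at E10.5, and their part in this was not tested.

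Variation between embryos set what could be seen for each gene. At E12.5, 6 members had a pooled coefficient of variation within genotypes under 5%, from 1.47% for Wac and 2.26% for Tcf20 to 4.39% for Med13l. The coefficient was 5.25% for Auts2, 8.31% for Ankrd11, 12.4% for Adnp and 18.6% for Myt1l. Counting alone gives 9.44% for Adnp and 1.84% for Myt1l. Adnp had 70 to 206 counts per library at E12.5, and most of its spread was of the size that counting gives, whereas that of Myt1l was well beyond it. The 2 sequencing runs of a library differed in Adnp by up to 0.66 on the log2 scale at E12.5, and in the 9 other members by no more than 0.16.

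**Figure D2:**
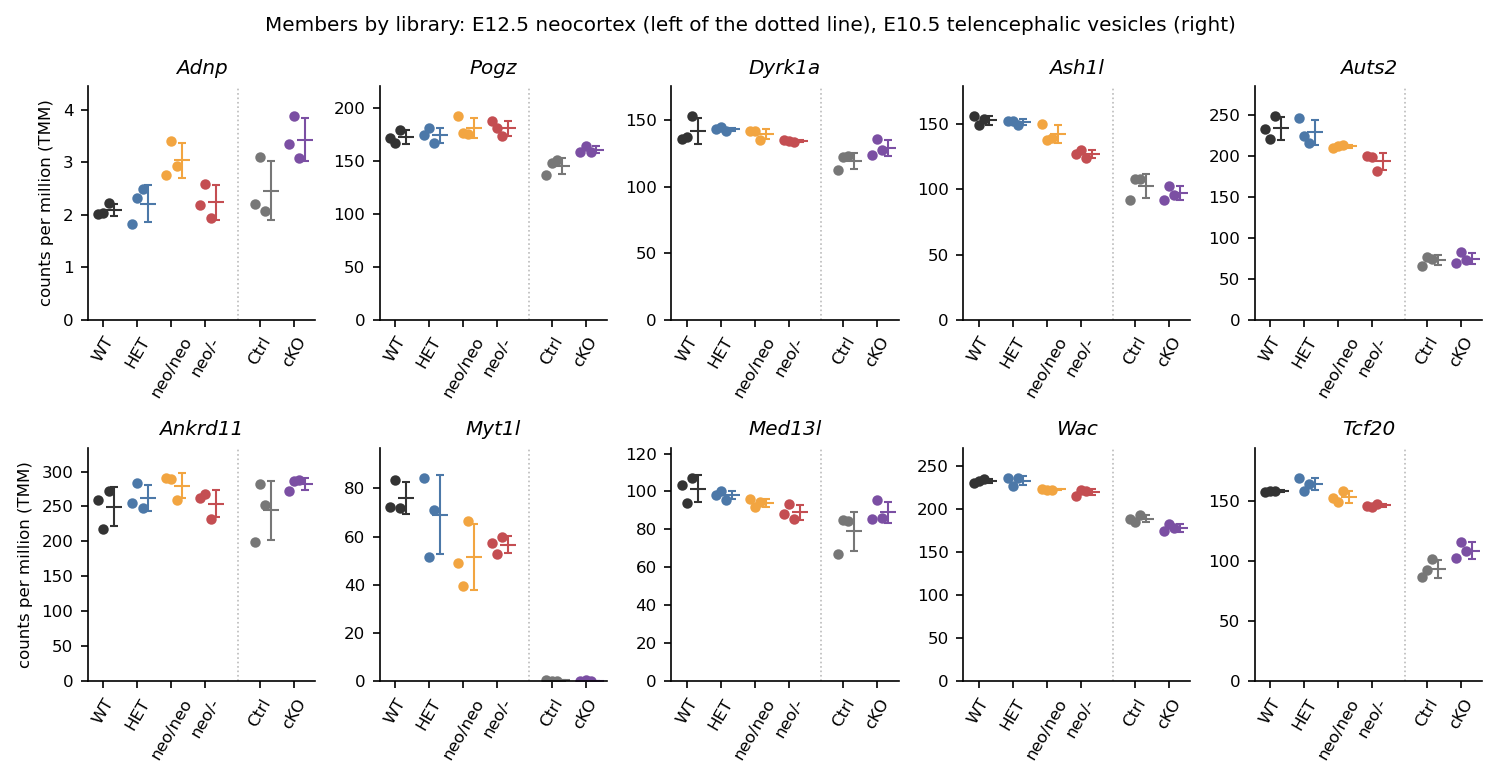
CPM (TMM-scaled, linear axes from 0) of the 10 members in every library, with 3 points per group and the mean ± SD beside them. At E12.5 Ash1l and Auts2 are lowest in all 3 neo/- libraries, and Wac and Tcf20 vary least within genotypes. Myt1l is close to 0 at E10.5.

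Loss of 1 Chd8 copy left no detectable mark on these genes. In HET against WT, none of the 10 members was called by edgeR, and DESeq2 called none either. None had an unadjusted p under 0.05 in edgeR, beside 1190 of all genes. The background was itself very low, with 0.0213% of the 18810 genes called in either direction. The groups overlapped for every member. Log2 differences ran from -0.14 for Myt1l to 0.086 for Adnp, with a median of 0.0078. For the 8 members other than Adnp and Myt1l, the 95% intervals of the difference stayed between -0.16 and 0.25. For Adnp the interval was -0.25 to 0.42 and for Myt1l -0.61 to 0.34, so changes of that size could not be seen in these samples.

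In the severe hypomorph, neo/-, 3 chromatin and transcription regulators were lower than in WT. They were Ash1l, Auts2 and Med13l, the 3 members with the longest exons, and 3 of 10 stands beside 5.99% of all genes called lower in this comparison. No member was called higher, against 5.48% of all genes. These shares rest on single libraries too: without WT replicate 2 or 3 or any 1 neo/- library, between 2.78% and 3.61% of all genes were called lower and between 2.52% and 4.45% higher. In all, 7 members had negative log2 differences, and for those 7 every neo/- library lay below every WT library. How many of all genes separate in this way was not counted. An unadjusted p under 0.05 in edgeR was found for 5 of the 10 members and 4991 of the 18810 genes. The median over the members was -0.099, against 0.0011 over all genes tested.

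Ash1l, the histone methyltransferase, had 156.0, 149.1 and 154.3 CPM in WT, 152.7, 152.9 and 149.1 in HET, 150.1, 138.0 and 139.1 in neo/neo and 127.4, 130.0 and 124.4 in neo/-. All 3 neo/- libraries were lower than the other 9, while WT, HET and neo/neo overlapped. Ash1l fell by 0.27 against WT (SE 0.039, edgeR adjusted p = 0.00085), a change of -16.9%, and by 0.25 against HET (SE 0.039, adjusted p = 0.0038). Against neo/neo it was -0.16 (SE 0.039, adjusted p = 0.38).

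Auts2, the Polycomb cofactor, had 232.8, 220.6 and 248.6 CPM in WT, 246.5, 224.8 and 216.7 in HET, 210.4, 211.9 and 213.7 in neo/neo and 200.2, 198.8 and 181.7 in neo/-. The genotypes overlapped only between WT and HET, and the neo/- libraries were again the 3 lowest. Auts2 fell by 0.27 against WT (SE 0.056, adjusted p = 0.0071), a change of -17.3%, and by 0.24 against HET (SE 0.056, adjusted p = 0.024). The call against HET was lost without HET replicate 1 (adjusted p = 0.11) and without neo/- replicate 1, 2 or 3 (0.063, 0.071 and 0.098). In neo/neo it stood between, at -0.14 against WT (SE 0.056, adjusted p = 0.13).

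Med13l, of the Mediator kinase module, had 103.6, 93.7 and 107.1 CPM in WT, 98.3, 100 and 95.7 in HET, 96.0, 91.8 and 94.2 in neo/neo and 88.1, 93.2 and 85.4 in neo/-. The neo/- libraries lay below those of WT and HET by a narrow margin, and overlapped with neo/neo. Med13l fell by 0.19 against WT (SE 0.050, adjusted p = 0.025), a change of -12.4%. Against HET it was -0.14 (SE 0.050, adjusted p = 0.11). The call against WT was lost without WT replicate 1 or 3 (adjusted p = 0.068 and 0.13), without neo/- replicate 1 or 3 (0.081 and 0.10) and with the first sequencing run alone (0.072).

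Tcf20, the coregulator related to Rai1, was the third member called lower in neo/- against HET, where Ash1l and Auts2 were the others. That is 3 of 10, beside 3.25% of all genes called lower, a share that lay between 0.707% and 1.73% without HET replicate 1 or 3 or any 1 neo/- library. It had 157.3, 158.4 and 158.4 CPM in WT, 168.9, 158.4 and 164.2 in HET, 152.5, 148.7 and 157.9 in neo/neo and 145.7, 145.1 and 147.4 in neo/-. These 3 neo/- values were the lowest of the 12 and close to each other. Tcf20 fell by 0.17 against HET (SE 0.036, adjusted p = 0.018), and against WT it was -0.11 (SE 0.036, adjusted p = 0.055 in edgeR and 0.035 in DESeq2). The call against HET was lost without HET replicate 1 or 3 (adjusted p = 0.099 and 0.056) and without neo/- replicate 1, 2 or 3 (0.080, 0.087 and 0.057).

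Wac, the adaptor of histone ubiquitination, and Dyrk1a, the kinase, showed small values in the same direction that did not pass the test. Wac had 229.6, 232.6 and 234.7 CPM in WT and 215.1, 221.4 and 220.6 in neo/-, a log2 difference of -0.085 (SE 0.035, adjusted p = 0.14). Dyrk1a had 135.8, 137.2 and 153.0 CPM in WT and 135.2, 134.9 and 134.0 in neo/-, a difference of -0.076 (SE 0.044, adjusted p = 0.29). The groups did not overlap for either gene, although the margin was narrow for Dyrk1a. Pogz and Ankrd11 showed no such direction in neo/-, with 0.068 (95% interval -0.035 to 0.17) and 0.023 (-0.16 to 0.21).

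The order of the genotype means was shared by several members. In 6 of 10 (Dyrk1a, Ash1l, Auts2, Med13l, Wac and Tcf20) the mean was lowest in neo/- and next lowest in neo/neo. How many of all genes show this order was not counted. Against WT, all genes with exons of 6 to 8 kb had a median of -0.028 in neo/neo and -0.045 in neo/-. Those over 12 kb had -0.096 and -0.13. Between neo/- and neo/neo themselves neither edgeR nor DESeq2 called a member. Of all genes edgeR called 0.0159% (3 genes, or 23 without neo/neo replicate 3). An unadjusted p under 0.05 in edgeR was found for 3 members (Ash1l, Adnp and Auts2), beside 1585 of the 18810 genes. So the neighbours neo/- and neo/neo were not shown to differ for any member. The comparisons above share the WT, HET and neo/- libraries with each other.

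In neo/- and neo/neo against WT, the lower values went together with exon length over all genes tested. In HET against WT the median was 0.0069 for genes of 1 to 2 kb and -0.0012 over 12 kb. For cKO against Ctrl it was -0.047 and 0.029. In neo/- against WT, the median log2 difference over all genes was 0.075 for the 2958 genes with exons of 1 to 2 kb, -0.045 for the 1882 genes of 6 to 8 kb and -0.13 for the 650 genes over 12 kb. Of those 650 genes, 28.3% were called lower and 1.08% higher, against 1.66% lower and 8.86% higher among the genes of 1 to 2 kb. Ash1l (14.84 kb), Med13l (15.43 kb) and Auts2 (22.89 kb) all belong to the longest class. With trends in exon length and GC content removed from each library, none of these calls was kept. Ash1l was then at -0.14 against WT (SE 0.041, adjusted p = 0.054), Auts2 at -0.098 (SE 0.055, adjusted p = 0.31) and Med13l at -0.058 (SE 0.049, adjusted p = 0.54), and against HET Ash1l was at -0.12 (adjusted p = 0.15), Auts2 at -0.091 (0.41) and Tcf20 at -0.11 (0.22). The median over the 10 members was then -0.051 in neo/- against WT. In neo/neo against WT it changed sign, from -0.055 to 0.018. What lies behind the length trend was not tested.

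**Figure D3:**
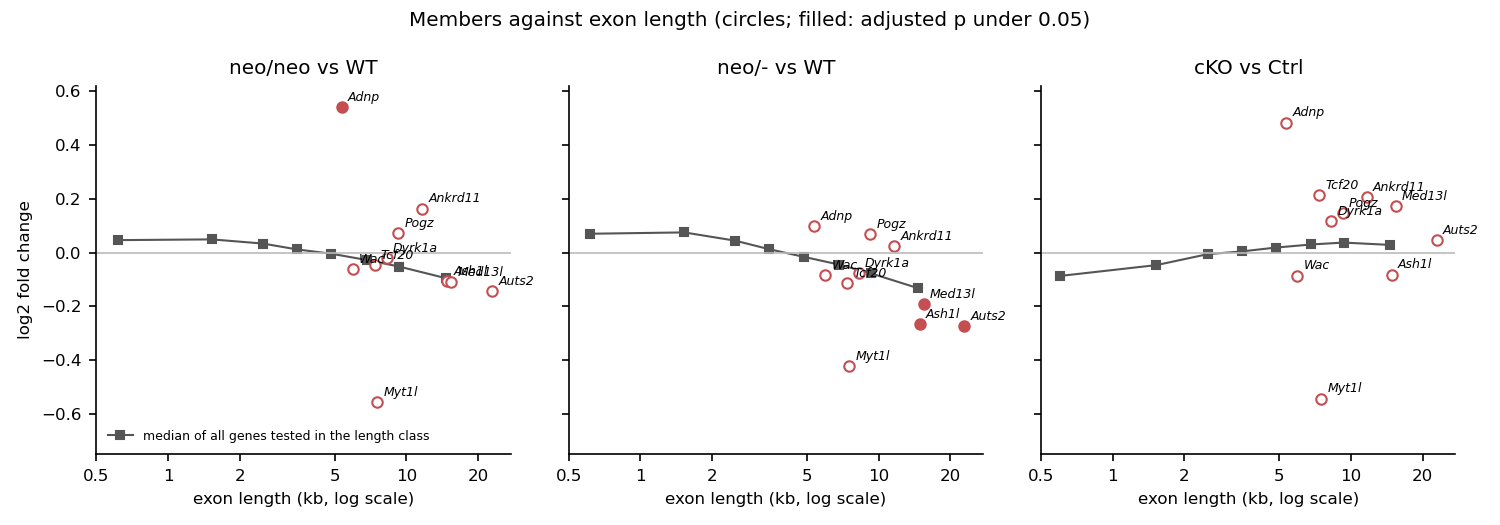
Log2 fold change of the 10 members (circles, filled where the adjusted p is under 0.05) against exon length in kb on a log axis, with the median of all genes tested in 8 length classes (squares). In neo/- against WT the class medians run from 0.070 to -0.13 and the 3 called members lie at the long end, whereas in cKO against Ctrl the class medians run from -0.087 for the shortest genes to 0.037 at 8 to 12 kb and 0.029 for the longest.

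In the mild hypomorph, neo/neo, the picture differed by gene. No member was called lower against WT, where 4.45% of all genes were, and 1 of 10, Adnp, was called higher, beside 3.71%. Without WT replicate 2 or 3 or neo/neo replicate 1 or 2, the share of all genes called lower was 1.26% to 2.00%, and without neo/neo replicate 3 it was 8.43%. Adnp had 2.02, 2.03 and 2.23 CPM in WT, 1.82, 2.32 and 2.50 in HET, 2.76, 3.40 and 2.94 in neo/neo and 2.19, 2.59 and 1.93 in neo/-. All neo/neo libraries were above the other 9. Adnp rose by 0.54 on the log2 scale (SE 0.15, adjusted p = 0.043), or 45.4%. These are 117 to 206 counts per neo/neo library from the first 2 exons, and 10 of the 23 other fits did not call it. The call was lost without WT replicate 1, 2 or 3 (adjusted p = 0.099, 0.12 and 0.067), without neo/neo replicate 1 or 2 (0.070 and 0.17) and without neo/- replicate 1 (0.064). With sex as a covariate the adjusted p was 0.064, and with the second sequencing run alone the difference was 0.34 (adjusted p = 0.33).

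Myt1l, the neuronal repressor, had the most negative values of the list without passing the test. It had 72.3, 83.5 and 71.9 CPM in WT, 84.3, 51.7 and 71.2 in HET, 48.9, 39.5 and 66.4 in neo/neo and 57.3, 52.8 and 59.8 in neo/-. Both hypomorphs lay below WT in every library, but HET replicate 2 was as low as they were. The log2 difference from WT was -0.56 in neo/neo (SE 0.21, adjusted p = 0.14) and -0.42 in neo/- (SE 0.21, adjusted p = 0.24). Without neo/neo replicate 3 it was called in neo/neo (-0.79, adjusted p = 0.033), and with only the WT and neo/- libraries in the fit it was called in neo/- (adjusted p = 0.0018). Over the 12 libraries Myt1l had a Pearson correlation of 0.84 with the summed neuron markers, and 4 of 16 of these markers (Dcx, Map2, Elavl4 and Snap25) were called lower in neo/neo against WT, with a list median of -0.30. Other members also went with these markers: over the same libraries the correlation with the neuron sum was 0.70 for Wac and 0.70 for Tcf20, and -0.72 for Adnp, -0.68 for Pogz and -0.67 for Ankrd11. With the summed erythroid markers, 3 of 6 of which were called higher in neo/- against WT, it was -0.69 for Auts2, -0.64 for Ash1l and -0.64 for Tcf20. The points share genotypes and library scaling, and the part of these cells in the members' values was not tested.

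Ankrd11, the coregulator that binds histone deacetylases, and Pogz, the HP1-binding zinc finger protein, had their highest mean in neo/neo. Ankrd11 had 258.6, 218.3 and 272.7 CPM in WT and 290.8, 289.7 and 259.5 in neo/neo, a difference of 0.16 (SE 0.084, adjusted p = 0.25). Pogz had 171.0, 166.6 and 179.0 CPM in WT and 191.6, 175.9 and 175.2 in neo/neo, a difference of 0.071 (SE 0.048, adjusted p = 0.39). In both genes the groups overlapped. Against HET, 3 members had an unadjusted p under 0.05 in neo/neo in edgeR, beside 4369 of the 18810 genes. Neither edgeR nor DESeq2 called a member there, whereas edgeR called 5.28% of all genes in either direction and 3.28% lower. That background was unstable: 0.121% of all genes were called without neo/neo replicate 2, 0.314% without neo/neo replicate 1, 0.324% without HET replicate 1 and 1.62% without HET replicate 3, 2.76% to 3.41% without WT replicate 3 or neo/- replicate 1 or 2, and 2100 genes in place of 994 without neo/neo replicate 3. A block for the replicate number also gave 0.

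**Figure D4:**
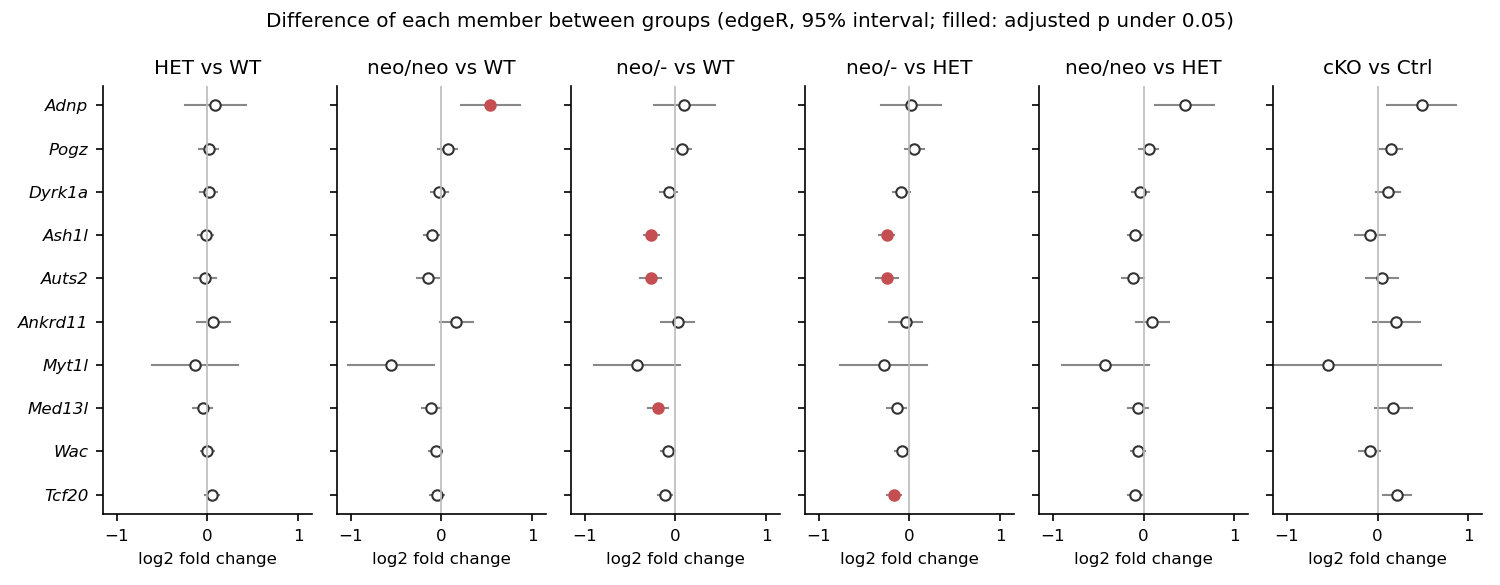
Log2 fold change of each member in 6 comparisons with its 95% interval (grey bars), filled red where the adjusted p is under 0.05. The interval of Myt1l in cKO against Ctrl runs from -1.78 to 0.70 and is cut at the edge of the panel. Filled circles are Adnp in neo/neo against WT, Ash1l, Auts2 and Med13l in neo/- against WT, and Ash1l, Auts2 and Tcf20 in neo/- against HET.

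Conditional loss of Chd8 at E10.5 gave a different set of values. In cKO against Ctrl edgeR called none of the 10 members, although 11.4% of the 18435 genes were called, 5.75% higher and 5.70% lower. The share was 2.87% without cKO replicate 2, 4.40% without cKO replicate 3 and 5.04% without Ctrl replicate 3. An unadjusted p under 0.05 in edgeR was found for 3 of the 10 members (Tcf20, Adnp and Pogz), beside 5049 of the 18435 genes. DESeq2 called Tcf20 alone. Of the log2 differences 7 of 10 were positive, with a median of 0.13 against -0.0019 over all genes, and of 0.075 without Ctrl replicate 1. Genes of 8 to 12 kb had a class median of 0.037 here, and with length and GC trends removed the members' median was 0.097.

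Tcf20 had 86.7, 92.4 and 101.6 CPM in Ctrl and 102.0, 115.6 and 108.1 in cKO. Every cKO library was above every Ctrl library, by a narrow margin at the nearest pair. The log2 difference was 0.22 (SE 0.072, adjusted p = 0.079 in edgeR and 0.045 in DESeq2). Adnp had 2.20, 3.11 and 2.08 CPM in Ctrl and 3.36, 3.87 and 3.07 in cKO, which overlapped, with a difference of 0.48 (SE 0.17, adjusted p = 0.094). Without Ctrl replicate 2 Adnp was called (0.69, adjusted p = 0.016). Pogz had 136.6, 147.3 and 150.4 CPM in Ctrl and 158.4, 164.0 and 158.5 in cKO, without overlap, with a difference of 0.15 (SE 0.057, adjusted p = 0.12).

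Ankrd11 had 198.7, 282.8 and 252.2 CPM in Ctrl and 271.9, 286.1 and 288.3 in cKO, a difference of 0.21 (SE 0.11, adjusted p = 0.28). Med13l had 67.2, 84.9 and 84.7 CPM in Ctrl and 85.7, 95.3 and 86.0 in cKO, a difference of 0.17 (SE 0.091, adjusted p = 0.25). In both genes Ctrl replicate 1 stood well below the other Ctrl libraries, and it was the lowest Ctrl library for 7 of 10 members. Without it the differences were 0.076 for Ankrd11 and 0.069 for Med13l. Without Ctrl replicate 2 instead, Ankrd11 was called (0.32, adjusted p = 0.038). Dyrk1a was at 0.12 (SE 0.062, adjusted p = 0.25), Auts2 at 0.046 (SE 0.080, adjusted p = 0.76), and Ash1l and Wac were at -0.082 (SE 0.074) and -0.086 (SE 0.053), neither called. Ctrl replicate 1 also had the highest summed neuron markers of the Ctrl group, at 490.1 CPM, and their part in these values was not tested.

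Across the 12 E12.5 libraries, the members fell into sets with like and unlike profiles, given here as a description since the points share genotypes and library scaling. Ash1l, Auts2, Med13l, Wac and Tcf20 went together, with Pearson correlations of log2 CPM between 0.61 and 0.89 over their 10 pairs. Ankrd11 went with Pogz (0.70) and Adnp (0.61), and opposite to Myt1l (-0.70). Of all 45 pairs 18 exceeded 0.5 and 15 were below 0. The genes with the most similar profiles were Smg1 (0.98) and Cep350 (0.96) for Ash1l, Senp6 (0.97) and Tecpr2 (0.96) for Auts2, Setd1b (0.97) and Nos1ap (0.97) for Med13l, Smim13 (0.99) and Phip (0.97) for Wac, and Ttl (0.93) and 2210408I21Rik (0.93) for Tcf20. They were Chd7 (0.98) and Asxl1 (0.97) for Ankrd11, Sphkap (0.98) and Gpr26 (0.98) for Myt1l, Sept11 (0.92) and Hif1a (0.91) for Dyrk1a, 2900005J15Rik (0.91) and Il18rap (0.91) for Pogz, and Gm13832 (0.89) and Acsl3 (0.89) for Adnp. These are the highest of 18810 genes, so values of this size are set by the search itself.

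Paralogues and complex partners of the members were also read out, from a list of 39 genes. Of these 38 were tested, all but Dyrk4, and none was called higher in any comparison. In neo/- against WT 5 were called lower (13.2%, beside 5.99% of all genes), with a list median of -0.065, and without any 1 WT or neo/- library the count was 1 or 2. Med13, the paralogue of Med13l, had 191.0, 191.6 and 204.3 CPM in WT and 165.6, 166.3 and 166.2 in neo/-. It fell by 0.24 (SE 0.043, adjusted p = 0.0034). Med12, of the same Mediator module, fell by 0.24 (SE 0.058, adjusted p = 0.018), from 125.7 ± 12.2 to 106.6 ± 3.20 CPM, and the groups did not overlap. Ankrd12, the paralogue of Ankrd11, had 53.9, 54.8 and 49.5 CPM in WT and 41.5, 38.3 and 42.8 in neo/-, and fell by 0.37 (SE 0.090, adjusted p = 0.020). Ncor1, a nuclear receptor corepressor, fell by 0.15 (adjusted p = 0.032) and Cbx5, which encodes an HP1 protein, by 0.16 (adjusted p = 0.044). With length and GC trends removed, none of the 38 was called in this comparison.

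Ankrd12 was the only one of these genes called in neo/neo against WT, with 38.1, 36.0 and 46.9 CPM in neo/neo. It fell by 0.39 there (SE 0.090, adjusted p = 0.023) and by 0.39 against HET (adjusted p = 0.031), while Ankrd11 itself had positive values in both comparisons. The call against WT was lost without WT replicate 2 or neo/neo replicate 1 or 2. In neo/- against HET, Med13 (-0.23, adjusted p = 0.0090), Ankrd12 (-0.37, adjusted p = 0.032) and Rybp, a Polycomb subunit (-0.17, adjusted p = 0.047), were called, and 1 of the 38 without HET replicate 1 or 3 or any 1 neo/- library. In cKO against Ctrl, 3 of 38 were called lower, beside 5.70% of all genes. Ring1, a Polycomb ubiquitin ligase, fell by 0.30 (SE 0.066, adjusted p = 0.015), Ccnc, the cyclin of the Mediator kinase module, by 0.26 (adjusted p = 0.027) and Cbx1, which encodes another HP1 protein, by 0.21 (adjusted p = 0.039). The count was 1 without Ctrl replicate 1 or 3, 0 without cKO replicate 2 or 3 and 7 without Ctrl replicate 2. Med12 shares 9.72% of its exon bases with another gene, Med13 7.38%, Ccnc 5.40% and Ncor1 0.648%, and how reads of such stretches were assigned was not tested.

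A list of 61 other autism-associated nuclear genes had more calls lower than higher in the hypomorphs. It was written from general knowledge, but with earlier results of these data known, so it is not an independent check. In neo/- against WT 18 of 61 were called lower (29.5%, beside 5.99% of all genes) and none higher, with a median of -0.13, and 11 were called without WT replicate 3 or neo/- replicate 1 or 2. In neo/neo against WT 9 were lower and 1 higher (14.8% and 1.64%, beside 4.45% and 3.71% of all genes), with a median of -0.055, and the 10 calls became 5 without WT replicate 2 or neo/neo replicate 1 and 3 without neo/neo replicate 2. Chd3, a remodeller related to CHD8, had 566.9, 552.0 and 557.3 CPM in WT, 414.7, 419.3 and 478.1 in neo/neo and 381.7, 400.0 and 397.6 in neo/-. It fell by 0.35 in neo/neo (SE 0.054, adjusted p = 0.0028) and by 0.51 in neo/- (SE 0.054, adjusted p = 9.2e-05). Kmt2e fell by 0.23 and 0.41 (adjusted p = 0.011 and 0.00013) and the histone demethylase gene Kdm5b by 0.25 and 0.34 (adjusted p = 0.0050 and 0.00023). Foxp2, a transcription factor of cortical neurons, fell by 0.26 in neo/neo (adjusted p = 0.013), and the histone methyltransferase gene Kmt2c by 0.28 in neo/- (adjusted p = 0.0019). With length and GC trends removed, 5 of 61 were called in neo/- (8.20%, beside 6.91% of all genes in that fit) and 4 in neo/neo (6.56%, beside 4.98%), close to the share of all genes.

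**Figure D5:**
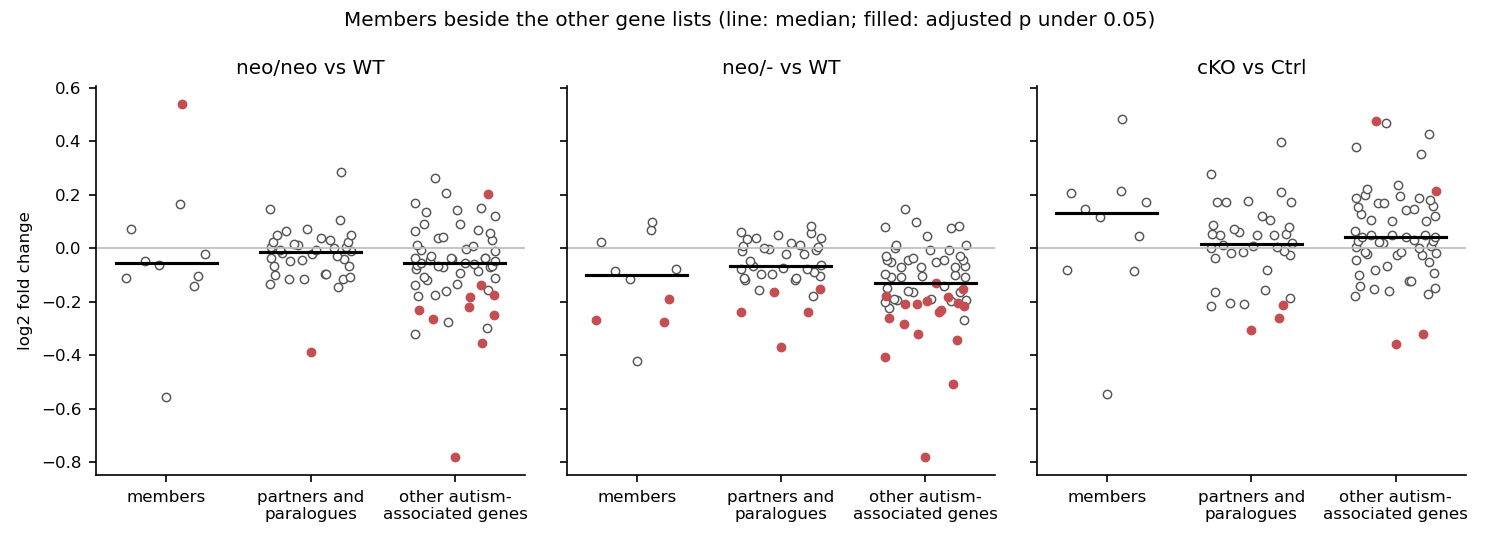
Log2 fold changes of the 10 members, the 38 tested partners and paralogues and the 61 other autism-associated nuclear genes in 3 comparisons, 1 point per gene, with the list median as a line and called genes filled. In neo/- against WT all called genes of the 3 lists lie below 0, and in cKO against Ctrl the medians lie at 0.13, 0.015 and 0.041.

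In HET against WT and in neo/- against neo/neo no gene of either list was called by edgeR, and in neo/neo against HET 7 of the 61 and 1 of the 38 were called, all lower (11.5% and 2.63%, beside 3.28% of all genes). With a block for the replicate number, 2 of the 61 were called, and without 1 library the count lay between 0 and 8. In cKO against Ctrl 2 of the 61 were higher and 2 lower (3.28% each way, below the 5.75% and 5.70% of all genes), and 9 in all were called without Ctrl replicate 2 and 2 without Ctrl replicate 3 or cKO replicate 2. Smarca4, the ATPase of the SWI/SNF remodeller, had 354.0, 419.0 and 399.5 CPM in Ctrl and 525.9, 559.0 and 546.6 in cKO, and rose by 0.48 (SE 0.071, adjusted p = 0.0025). Nacc1, a transcriptional repressor, rose by 0.21 (adjusted p = 0.046). Meis2, a homeobox factor, fell by 0.36 (SE 0.072, adjusted p = 0.011) and Chd3 by 0.32 (SE 0.068, adjusted p = 0.014). Chd3 shares 5.65% of its exon bases with another gene and Kmt2e 9.31%.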

How the data were processed

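RNA was sequenced from 12 E12.5 and 6 E10.5 libraries. Per the labels and methods, the authors trimmed reads with Trim Galore 0.4.1, aligned them to GRCm38 with TopHat2 2.1.0 and counted fragments per gene with featureCounts 1.5.0. The command in the E12.5 table sets neither strand nor multiple assignment, and that of the E10.5 table is not given in the sources used here. The deposited values are raw counts per gene and run. The 2 runs of each library were summed, and 46005 identifiers matched a symbol.

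Counts were analysed with edgeR 4.0.16 in R 4.3.3: filterByExpr, TMM scaling, robust quasi-likelihood tests, Benjamini-Hochberg adjustment over all 18810 (E12.5) or 18435 (E10.5) genes tested, threshold 0.05. Stages were fitted apart and the 4 genotypes together. TPM used the deposited exon lengths. Correlations used log2 CPM with a prior count of 2. Alternatives included DESeq2 1.42.0, scaling, filters, single runs, loess removal (span 0.5) of exon length and GC trends (99.4% and 99.5% of genes had a GC value), sex, a replicate block and each library left out. The scripts were tested on simulated counts.

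Same-numbered libraries of neo/neo and HET had positive correlations of deviations throughout (0.108, 0.195 and 0.199). No other pair of groups was positive throughout, and cKO and Ctrl had -0.103, -0.0181 and 0.114. Whether the numbers mark a pairing is not known. The main fits used no pairing, and the replicate block was an alternative over all groups of a stage.

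All members, the partners called in a comparison (up to 6), the 4 other autism-associated genes with the smallest adjusted p in neo/neo or neo/- against WT and in cKO against Ctrl, and the 2 genes most correlated with each member are named. Members and lists were chosen with earlier results of these data known. Every column of counts was used.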

Additional observations from a re-analysis of the deposited data

Results flagged for a closer look

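Dyrk1a, Med13l and Tcf20 lay on opposite sides of their controls in neo/- at E12.5 and in cKO at E10.5, with every library of one group outside the range of the other at both stages. The log2 difference in cKO against Ctrl minus that in neo/- against WT was 0.19 for Dyrk1a, 0.36 for Med13l and 0.33 for Tcf20. With length and GC trends removed the values were 0.097, 0.16 and 0.24, and without Ctrl replicate 1 they were 0.15, 0.26 and 0.28. Dyrk1a in neo/- against WT went from -0.076 to -0.0063 with the trends removed, so it then stood hardly below WT. Of these genes, edgeR called only Med13l in neo/- against WT and none in cKO against Ctrl. The difference between the stages was not tested, since stage, kind of allele, tissue piece and sequencing cannot be told apart.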

How the results depend on the processing

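The 70 member results were recomputed under up to 23 alternatives at E12.5 and 15 at E10.5, 1527 values in all: 1478 kept their side of the threshold, 36 lost a call, 13 gained one and no called value changed direction. Removal of length and GC trends, with or without the replicate block, left 0 members called in neo/- against WT and 0 in neo/- against HET. For neo/neo against WT the count was 0 with the replicate block, the second run alone, sex as a covariate or only the 2 groups in the fit. In cKO against Ctrl it was 1 with DESeq2, 2 without the filter, 2 with the replicate block and 1 with length and GC trends removed and the block. Without 1 library each, the counts ranged from 0 to 2 in neo/neo against WT, 2 to 4 in neo/- against WT, 0 to 1 in neo/neo against HET, 1 to 3 in neo/- against HET and 0 to 2 in cKO against Ctrl, and stayed 0 in HET against WT and neo/- against neo/neo. The blocked fit changed no other count of members by over 1.5 times. It changed list counts from 5 to 3 partners in neo/- against WT, from 7 to 2 other genes in neo/neo against HET, and from 3 to 5 partners and 4 to 7 other genes in cKO against Ctrl. DESeq2 called 5 partners in place of 1 and 13 other genes in place of 7 in neo/neo against HET. Over all genes, the 994 calls in neo/neo against HET became 1786 with DESeq2, 572 with the block, 387 with sex and 42 with only the 2 groups in the fit. The 1534 calls in neo/neo against WT became 1005 with sex and 430 with only the 2 groups, and the 1021 in neo/- against HET became 1700 with DESeq2. In HET against WT DESeq2 called 15 genes in place of 4, and in neo/- against neo/neo 27 in place of 3. Removal of length and GC trends changed the calls from 837 lower and 697 higher to 383 and 553 in neo/neo against WT, from 1127 and 1031 to 640 and 660 in neo/- against WT, from 617 and 377 to 142 and 210 in neo/neo against HET, and from 611 and 410 to 185 and 240 in neo/- against HET. The causes were not tested. Sex as a covariate was not run at E10.5, where pools mixed sexes. Low counts limit Adnp at both stages, where most of its exon bases are shared with Gm20716, and Myt1l at E10.5.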
